A study of Homo sapiens with 2 samples.

Results

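Accessible chromatin at the ends of long noncoding RNA genes that stand apart from protein-coding genes was described here in C4-2, an LNCaP-derived prostate cancer cell line that grows without androgen. A peak was counted if it lay on chromosomes 1 to 22 or X, overlapped no protein-coding gene, lay more than 3 kb from every protein-coding gene end, and lay within 3 kb of an end of a noncoding RNA gene. Genes of type lncRNA or ncRNA were counted as noncoding RNA genes, while pseudogenes, transfer RNAs and other small RNA types were not, and genes came from the RefSeq table of GRCh38.p14. The rule gave 85 peaks of 2010 in the control list and 85 peaks of 2418 in the knockdown list, together 170 of 4428. They are called noncoding-end peaks below. All genes they reached are typed lncRNA in the table.

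Open DNA was measured by ATAC-seq, where a transposase inserts sequencing adapters into accessible chromatin. Cells expressing a control shRNA (shCTR, called the control) gave 1 library, and cells expressing an shRNA to WHSC1 (shWHSC1, called the knockdown) gave the other, so both carry an shRNA. WHSC1, also named NSD2, is a histone H3 methyltransferase. Both were grown in RPMI with fetal bovine serum, and neither group has a replicate. Differences between the libraries therefore have no replicate error beside them, and no p-value is given. Each peak carries a fold enrichment over local background and a −log10 q, both computed by the authors' peak caller within its own library and not scaled between libraries. Read depth is unknown. Neither list held a peak within 3 kb of NSD2, so the lists give no check of the knockdown. Of 8 luminal prostate genes looked up in the lists, 2 (ACP3 and STEAP2) were called near an end in both, and KLK3, KLK2 and HOXB13 were among those with none. A weak peak in a cell line can come from few cells with an open site or from little opening in many, and these cannot be told apart.

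Long noncoding RNAs are transcribed by RNA polymerase II, mostly capped and spliced, and act as RNAs or through the act of transcription. Some are hosts: their introns or exons hold microRNAs or small nucleolar RNAs that are cut out of the transcript. The open site of such a gene usually lies at its start, where the polymerase assembles.

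The sequences below are those of the starts that the named results turn on, as RefSeq gives them on GRCh38.p14. Each is the 300-base window from 250 bases before to 50 bases after the gene's start, 5′ to 3′ on the gene's strand. Capitals mark CCAAT (the NF-Y box), GGGCGG (the GC box bound by SP1), CCGGAAGT (an ETS site), TGACGTCA (the cAMP response element), CACGTG (an E-box), TATAAA (the TATA box), TGAGTCA (an AP-1 site), TGTTTAC (a forkhead site), the NRF1 motif or the ZNF143 motif, on either strand. The first group had a noncoding-end peak in both libraries. MIR17HG lies at chr13:91347437-91347736 on the plus strand, SNHG5 at chr6:85678684-85678983 on the minus strand, and LNC-LBCS at chr6:19804710-19805009 on the minus strand.
MIR17HG: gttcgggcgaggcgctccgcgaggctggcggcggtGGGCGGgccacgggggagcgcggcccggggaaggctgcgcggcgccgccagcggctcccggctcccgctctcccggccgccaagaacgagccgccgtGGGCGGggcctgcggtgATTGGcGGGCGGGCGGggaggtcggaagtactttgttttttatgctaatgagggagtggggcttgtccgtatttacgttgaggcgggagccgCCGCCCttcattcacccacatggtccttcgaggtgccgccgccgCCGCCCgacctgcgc
SNHG5: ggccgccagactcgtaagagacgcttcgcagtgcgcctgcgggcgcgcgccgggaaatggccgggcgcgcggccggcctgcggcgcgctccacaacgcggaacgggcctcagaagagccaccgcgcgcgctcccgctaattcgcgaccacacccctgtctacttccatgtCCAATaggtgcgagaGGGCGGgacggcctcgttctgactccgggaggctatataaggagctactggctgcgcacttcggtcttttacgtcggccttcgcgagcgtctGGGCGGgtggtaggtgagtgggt
LNC-LBCS: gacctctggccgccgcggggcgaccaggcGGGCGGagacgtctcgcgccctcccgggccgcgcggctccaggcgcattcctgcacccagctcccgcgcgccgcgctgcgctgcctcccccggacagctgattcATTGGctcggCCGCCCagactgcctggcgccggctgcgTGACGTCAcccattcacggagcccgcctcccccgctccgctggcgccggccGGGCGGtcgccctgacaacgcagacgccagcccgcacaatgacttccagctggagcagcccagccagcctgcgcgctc

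The second group had such a peak in 1 library. DANCR (chr4:52712144-52712443, plus strand) and MIRLET7A1HG (chr9:94166008-94166307, plus strand) had it in knockdown cells, and LINC00472 (chr6:71420696-71420995, minus strand) in control cells.
DANCR: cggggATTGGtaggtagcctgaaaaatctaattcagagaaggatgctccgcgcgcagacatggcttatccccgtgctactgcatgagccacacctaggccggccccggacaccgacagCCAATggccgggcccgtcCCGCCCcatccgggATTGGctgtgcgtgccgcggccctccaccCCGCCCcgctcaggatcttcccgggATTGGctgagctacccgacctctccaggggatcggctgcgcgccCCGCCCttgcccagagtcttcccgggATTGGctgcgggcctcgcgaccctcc
MIRLET7A1HG: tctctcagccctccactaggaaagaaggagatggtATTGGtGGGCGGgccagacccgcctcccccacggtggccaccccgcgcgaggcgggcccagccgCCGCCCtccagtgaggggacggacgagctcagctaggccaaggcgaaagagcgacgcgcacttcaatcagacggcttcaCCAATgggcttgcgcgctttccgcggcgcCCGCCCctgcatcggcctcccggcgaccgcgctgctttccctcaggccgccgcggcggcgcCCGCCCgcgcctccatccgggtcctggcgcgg
LINC00472: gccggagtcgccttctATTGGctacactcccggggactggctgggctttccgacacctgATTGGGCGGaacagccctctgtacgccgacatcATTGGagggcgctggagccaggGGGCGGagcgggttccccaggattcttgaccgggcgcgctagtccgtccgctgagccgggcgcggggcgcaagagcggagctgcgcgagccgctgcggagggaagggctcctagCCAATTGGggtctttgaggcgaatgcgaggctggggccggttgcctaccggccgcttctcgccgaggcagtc

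These 6 windows held from 1 (MIR17HG, SNHG5, LNC-LBCS) to 5 (DANCR, LINC00472) matches to CCAAT. Their GC boxes numbered 2 in SNHG5 and LINC00472, 3 in LNC-LBCS and DANCR, 4 in MIRLET7A1HG and 6 in MIR17HG, with overlapping matches counted separately. A match is a description of the letters and not a bound site.

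Equal numbers of noncoding-end peaks were called, while the rest of the knockdown list was the longer. Knockdown peaks per control peak came to 1.00 (95% exact interval 0.732 to 1.37) at noncoding ends and 1.21 (interval 1.14 to 1.29) over all other peaks of the same chromosomes, a value inside the first interval. The 85 peaks were 4.39% of the control list (interval 3.52 to 5.40%) and 3.65% of the knockdown list (interval 2.93 to 4.50%). Intervals here and below are exact (Clopper-Pearson for shares) and hold only the error of counting.

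In fold and width the medians of all other peaks lay inside the intervals of the noncoding-end medians. Median fold was 3.65 in control cells (interval of the median 3.51 to 3.72), beside 3.58 over all other control peaks, and 3.41 in knockdown cells (interval 3.31 to 3.62), beside 3.45. Fold ran from 3.03 to 5.71 in control cells and from 2.71 to 4.72 in knockdown cells. Median width was 353 bp in control cells (interval 300 to 408 bp) and 329 bp in knockdown cells (interval 288 to 383 bp), beside 357 and 361 bp over other peaks. Few were strong: 4 of 85 control peaks (4.71%) and 5 of 85 knockdown peaks (5.88%) had a −log10 q of 5 or more, beside 8.32% and 8.65% of other peaks.

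In each list 42 of the 85 peaks overlapped a peak of the other list by at least 1 bp, which is 49.4% (interval 38.4 to 60.5%). Over all peaks of these chromosomes the share was 53.2% in the control list and 44.0% in the knockdown list, so the members' share was near the background. Peaks at protein-coding gene ends were overlapped more often, 64.4% in control cells (interval 61.4 to 67.4%) and 54.5% in knockdown cells (interval 51.6 to 57.3%). Distal peaks lay outside coding genes and over 3 kb from the coding and noncoding ends counted here. Some still lay at small RNA genes or pseudogenes. Distal peaks were overlapped less often, 40.9% in control cells (interval 36.5 to 45.3%) and 32.9% in knockdown cells (interval 29.2 to 36.8%). The interval at noncoding ends lay below that of coding ends in control cells and above that of the distal peaks in knockdown cells, and overlapped the others. These are descriptions of 2 lists, without a test.

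Strong noncoding-end peaks were shared more often than weak ones. Of noncoding-end peaks with a −log10 q from 1 to 1.5, 4 of 16 in control cells and 3 of 21 in knockdown cells (14.3%) were overlapped. All other peaks of that class had 24.2% and 13.7%. From 3 to 5 the shares were 66.7% of 12 and 81.2% of 16, beside 79.0% and 67.5% of other peaks. At 5 or more all 4 control peaks and all 5 knockdown peaks were overlapped, beside 96.8% and 92.8% of other peaks. The rise with strength was thus seen in other peaks as well. The 43 unshared peaks of each list had a median −log10 q of 1.88 in control cells and 1.70 in knockdown cells, beside 2.30 and 2.54 for the 42 shared; among other peaks the medians were 1.66 and 1.76 for unshared and 2.67 and 2.95 for shared.

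**Figure D1:**
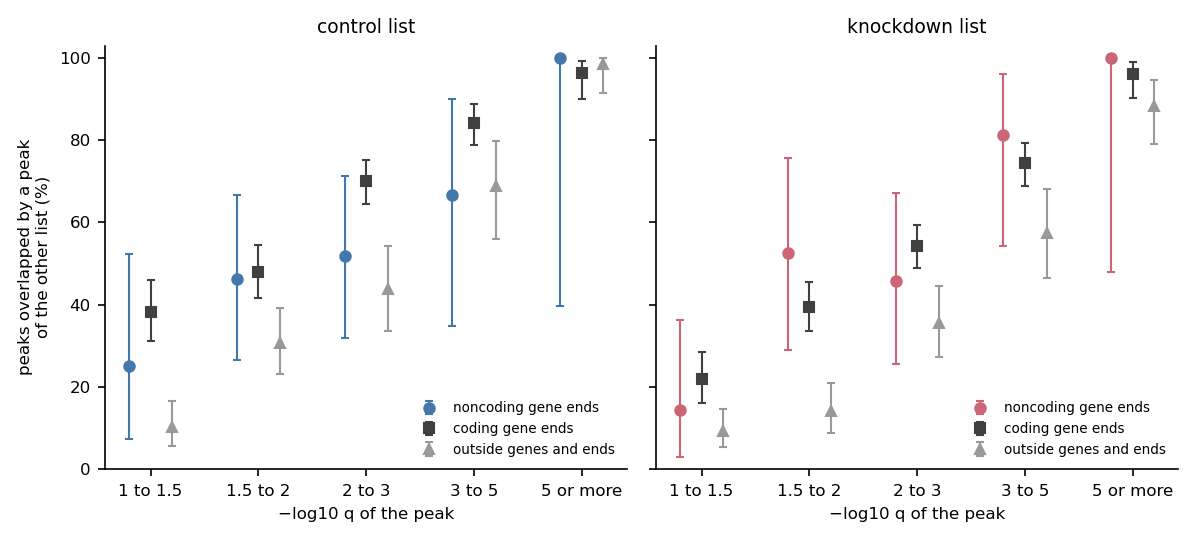
Share of peaks that the other list overlaps (vertical axis, percent) by the −log10 q of the peak (horizontal axis), with 95% exact intervals. Circles are noncoding gene ends and squares are coding gene ends. Triangles, labelled as outside genes and ends, are distal peaks, some of which lie at small RNA genes or pseudogenes. The share is lowest in the weakest class and highest in the strongest for all 3 kinds, and the wide bars at noncoding ends follow from 4 to 27 peaks per class.

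Among the 42 pairs of overlapping peaks, fold differed little. It was higher in knockdown cells in 19 pairs (45.2%) and higher in control cells in 23, beside 44.9% higher in knockdown cells among the 987 other overlapping control peaks. The median knockdown-to-control ratio of fold was 0.979, beside 0.982 among the others. The 4 pairs with the most unequal folds were LOC105379477, LINC02947, LINC02842 and LINC01340. Fold at LOC105379477 was 5.71 in control cells and 4.12 in knockdown cells, a ratio of 0.721. At LINC01340 it was 3.63 in control cells and 4.72 in knockdown cells, a ratio of 1.30. LINC02947 had 4.03 and 3.12, and LINC02842 had 3.72 and 2.92, both lower in knockdown cells. LINC02947 and LINC02842 are not named by the rule for named genes; their values were known when they were picked.

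**Figure D2:**
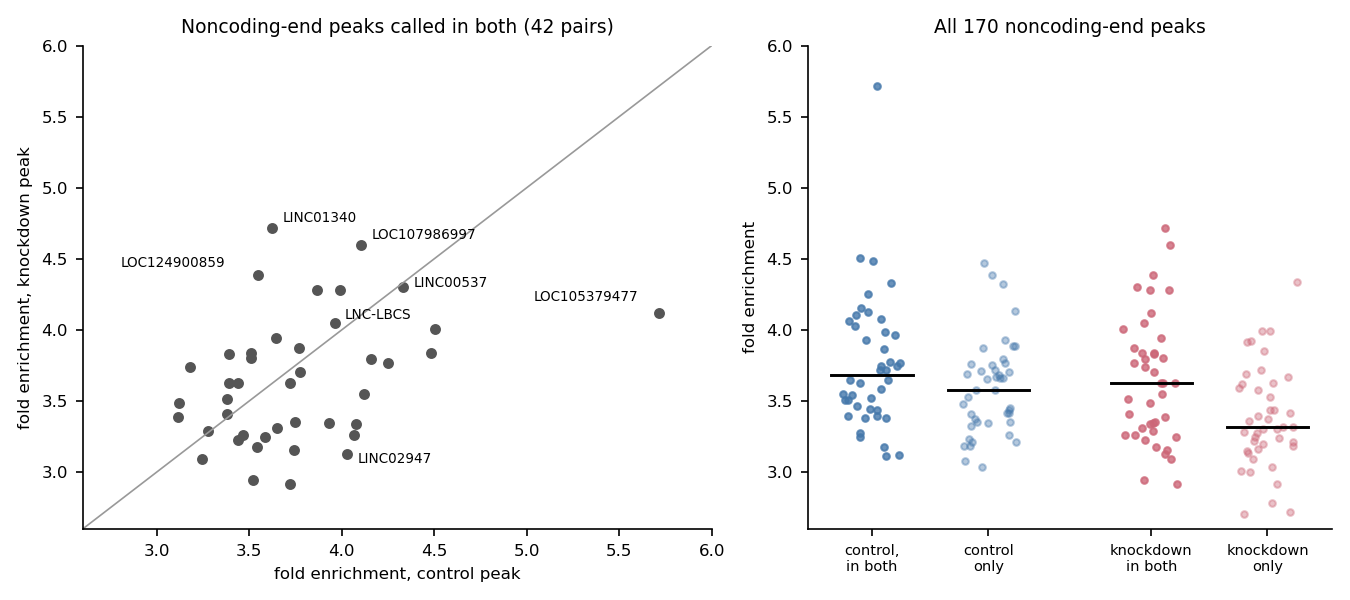
Left, fold enrichment of the knockdown peak (vertical) against the control peak (horizontal) for the 42 overlapping pairs, with the line of equal fold. Right, fold of all 170 noncoding-end peaks by list and by whether the other list held an overlapping peak, with medians as bars; the medians are 3.69 and 3.58 in control cells and 3.63 and 3.32 in knockdown cells.

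At the level of genes, 144 noncoding RNA genes had such a peak: 47 in both libraries, 47 in control cells alone and 50 in knockdown cells alone. They are 1.07% of the 13430 noncoding genes with an end far enough from coding genes. Those with a peak in control cells are 0.700% of these and those with one in knockdown cells 0.722%, while 0.350% had one in both, 0.350% in control cells alone and 0.372% in knockdown cells alone. The order of the single-library counts was not stable: with the knockdown list shortened to the length of the control list by −log10 q it was 51 genes in control cells alone against 32 in knockdown cells alone. With coding ends more than 10 kb away it was 44 against 42. A gene without a peak did not pass the authors' threshold; it was not measured as closed. Of the 47 genes with a peak in both, 46 had peaks that overlapped, and MIR17HG was the exception. Of the genes of the control alone, 2 (PARAIL and LOC105375751) had a knockdown peak within 3 kb of an end that failed the distance to coding genes.

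Of 75 genes named as microRNA hosts (MIR and the suffix HG) where a peak could lie, 4 had one (5.33%). Among all noncoding genes that could be reached the share was 1.07%, and 4 genes are too few to read a difference from. The hosts were MIR17HG in both, and MIRLET7A1HG, MIR29B2CHG and MIR3147HG in knockdown cells alone. MIR17HG is the host of the miR-17-92 cluster, a set of microRNAs known for promoting proliferation. Its control peak, chr13:91347327-91347939, had 3.87-fold enrichment (−log10 q 2.67) and covered all 300 bases of the start window printed above. Its knockdown peak, chr13:91349046-91349290, had 3.37-fold enrichment (−log10 q 1.71) and lay 1107 bp further downstream, inside the gene. It ended 1315 bp before the first hairpin, MIR17, and covered none of the start window.

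The microRNAs of these hosts are shown with the seed, bases 2 to 8, in capitals, since the seed sets which messages a microRNA can bind. For each hairpin the arm that is usually the more abundant is given. Within the MIR17HG cluster, miR-17-5p and miR-20a-5p share 1 seed, and miR-19a-3p and miR-19b-3p share another.
miR-17-5p: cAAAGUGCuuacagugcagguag
miR-20a-5p: uAAAGUGCuuauagugcagguag
miR-18a-5p: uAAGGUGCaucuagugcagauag
miR-19a-3p: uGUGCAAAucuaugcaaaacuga
miR-19b-3p: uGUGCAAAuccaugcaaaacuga
miR-92a-3p: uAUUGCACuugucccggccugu

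MIRLET7A1HG carries let-7a-1, let-7f-1 and let-7d, of the let-7 family that holds back growth-promoting messages. Its knockdown peak, chr9:94165919-94166126, had 3.67-fold enrichment (−log10 q 2.35) and covered 119 bases of the start window. The nearest control peak was 3467 kb away. MIR29B2CHG carries miR-29b-2 and miR-29c, which are known for targeting collagen messages. Its knockdown peak, chr1:207822591-207822902, had 3.27-fold enrichment (−log10 q 2.56) and covered 249 bases of its start window, and the nearest control peak was 70.5 kb away. The peak also lay over an end of LOC148696. The arms of both hosts fall into 2 seeds, 1 for let-7 and 1 for miR-29.
let-7a-5p: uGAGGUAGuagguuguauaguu
let-7f-5p: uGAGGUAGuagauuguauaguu
let-7d-5p: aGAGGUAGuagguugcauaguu
miR-29b-3p: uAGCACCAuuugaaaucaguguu
miR-29c-3p: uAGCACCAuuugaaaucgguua

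MIR3147HG and LOC105375299, a pair with divergent starts 647 bp apart, shared a knockdown peak at chr7:57404245-57405100 with 3.99-fold enrichment (−log10 q 4.66). That peak also covered the MIR3147 hairpin. The nearest control peak was 202 kb away.

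Among hosts of small nucleolar RNAs, 1 of 21 genes with an SNHG symbol had a peak (4.76%), beside 1.07% of all. From 1 gene no difference can be read. SNHG5, the host of SNORD50A and SNORD50B, had one in both libraries, with 3.44-fold enrichment in control cells (chr6:85678990-85679224, −log10 q 1.55) and 3.22-fold in knockdown cells (chr6:85678689-85679075, −log10 q 1.60). The 2 overlapped by 86 bp. The control peak lay upstream of the window printed above, while the knockdown peak covered 295 of its bases. GAS5, a growth-arrest transcript and host of several small nucleolar RNAs, had a peak in knockdown cells alone (chr1:173862164-173862561, 2.79-fold, −log10 q 1.29). That peak lay 1340 bp beyond the stop end of GAS5 and 687 bp from an end of GAS5-AS1, not at the GAS5 start.

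Of 26 prostate cancer lncRNAs where such a peak could lie, 2 had one, beside 1.07% of all noncoding genes; 2 genes are too few to read a difference from. DANCR, which is known for holding back differentiation and hosts SNORA26 and MIR4449, had a knockdown peak at chr4:52712267-52712530 with 4.34-fold enrichment (−log10 q 3.90). It was the highest fold among genes of the knockdown alone, it covered 177 bases of the printed start window, and the nearest control peak was 869 kb away. PCAT1, a prostate cancer transcript of chromosome 8, had a control peak inside the gene, 2189 bp from its nearer end (chr8:127018512-127018825, 3.34-fold, −log10 q 1.72). The same peak lay 2206 bp from an end of LOC105375751. PCA3, PCGEM1, SCHLAP1, ARLNC1 and DRAIC, all on the full list of 31, had none by this rule in either library. Listed genes outside the 26 could have no such peak whatever the data. Which of the genes just named lie outside the 26 is not given here, so their lack of a peak is not read as a result.

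Of 17 widely expressed lncRNAs that could be reached, 3 had a peak, GAS5, LINC00472 and CHASERR, beside the same 1.07% and on as few genes, while NEAT1 and MALAT1 had none by this rule. LINC00472 and LINC01626 have divergent starts 281 bp apart. They shared a control peak at chr6:71420557-71421014 with 3.77-fold enrichment (−log10 q 2.23) that covered all 300 bases of the LINC00472 window and 238 of the LINC01626 window. The nearest knockdown peak was 132 kb away. CHASERR, formerly LINC01578, lies beside CHD2 and is known to lower its expression. It had a knockdown peak 316 bp upstream of its start (3.18-fold), and the nearest control peak was 21.7 kb away. LINC00526 and LINC00667, with starts 70 bp apart, had a peak in both libraries, 3.93-fold in control cells and 3.34-fold in knockdown cells, which overlapped by 40 bp. LNC-LBCS, named for its low expression in bladder cancer stem cells, was called in both, 3.96-fold in control cells and 4.05-fold in knockdown cells, over its start.

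The 10 genes with the highest control fold among those called in both were led by LOC105379477, LOC101928236 (4.51-fold in control cells, 4.01-fold in knockdown cells) and LINC03124 (4.48-fold and 3.84-fold). LINC00537 followed with 4.33-fold and 4.30-fold, and LINC01802 with 4.25-fold and 3.76-fold. NIHCOLE, a transcript described in DNA end joining, had 4.16-fold and 3.80-fold, 725 and 671 bp upstream of its start. The rest were LINC02820 (4.12-fold and 3.55-fold), LOC107986997 (4.11-fold and 4.60-fold), LOC107987122 (4.08-fold and 3.34-fold) and LINC02730 (4.07-fold and 3.26-fold). Of these 10, only LOC107986997 had the higher fold in knockdown cells. They were ranked by control fold, which by itself favours that direction. The peak of LOC105379477 lay in a stretch of chromosome 20 with no protein-coding gene end within 1368 kb.

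Genes called in control cells alone were led by LOC107985108 (chr1:143735706-143736065, 4.47-fold, −log10 q 3.53), LINC00663 (chr19:19776431-19776691, 4.38-fold, −log10 q 3.39) and LOC105372130 (chr18:55665129-55665601, 4.33-fold, −log10 q 4.14). LOC100132249 had 4.14-fold enrichment, LOC124901494 3.93-fold, LOC101927209 3.89-fold, LINC01114 3.89-fold and LOC105372191 3.80-fold. The peaks of LOC107985108, LOC105372130, LOC100132249 and LOC101927209 lay over the start of the gene. The LINC00663 peak covered the pseudogene ZNF56P and the LOC100132249 peak the pseudogene PTGER4P2-CDK2AP2P2, copied sequence in which reads can be misplaced. The nearest knockdown peak was between 10.5 kb (LOC101927209) and 836 kb (LOC105372130) from these 8 peaks.

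Genes called in knockdown cells alone were led, after DANCR, by LOC105374963, LOC124903244 and the MIR3147HG pair. LOC105374963 was counted through the LNC-LBCS peak, which reached 2999 bp from its end in knockdown cells and just missed 3 kb in control cells, so it marks no separate site. LOC124903244 had 3.99-fold enrichment 138 bp upstream of its start (chr13:105904288-105904605), with the nearest control peak 2058 kb away. LOC105372436 had 3.92-fold enrichment in the widest noncoding-end peak of either list, 2128 bp, on chromosome 19 (chr19:50134330-50136457). That peak lay 540 bp beyond the stop end of LOC105372436 and nearer, at 466 bp, to the small RNA genes SNAR-B1 and SNAR-B2. LOC105377308 had 3.91-fold enrichment over the pseudogene VAMP9P, and LOC105378269 3.85-fold enrichment. The lowest folds were 2.71 at ZNF692-DT in knockdown cells and 3.03 at LOC124904598 in control cells, both called in that list only.

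Some genes had more than 1 peak. LINC02848 had 2 in each library: one at chr7:63900533-63900961 in control cells (3.51-fold, beside 3.84-fold in knockdown cells) and one at chr7:63926132-63926874 (3.86-fold, beside 4.28-fold). The second also lay near ends of LOC105375318 and LOC124901653. Both were higher in knockdown cells. LOC105378179 had 2 control peaks, of 3.64-fold and 3.41-fold, and 1 knockdown peak of 3.94-fold, which overlapped the first. In all, 10 control and 12 knockdown noncoding-end peaks were near 2 or more noncoding genes, so genes outnumber sites.

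Peaks gathered at the very ends. In control cells 47 of 85 peaks (55.3%) and in knockdown cells 50 of 85 (58.8%) lay within 500 bp of an end, and 25 and 19 lay over it. Of the peaks within 500 bp, 57.4% in control cells (interval 42.2 to 71.7%) and 54.0% in knockdown cells (interval 39.3 to 68.2%) were shared. From 500 bp to 3 kb 15 of 38 control peaks were shared (39.5%, interval 24.0 to 56.6%). For the knockdown it was 15 of 35 (42.9%, interval 26.3 to 60.6%), so the intervals of near and far peaks overlapped. Strand was known for the nearest gene of 52 control and 53 knockdown peaks. Of these, 39 and 40 were nearer the start of the gene than its stop end, and 27 of 31 and 27 of 32 among those within 500 bp.

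**Figure D3:**
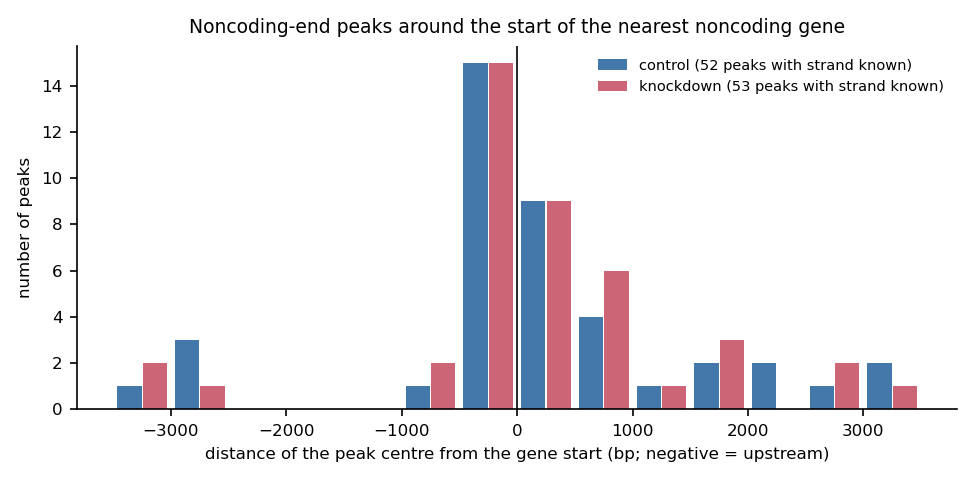
Number of noncoding-end peaks (vertical) by the distance of the peak centre from the start of the nearest noncoding gene in bins of 500 bp (horizontal, negative upstream), for peaks whose gene has a known strand. In each library 15 centres lie in the 500 bp before the start and 9 in the 500 bp after it; 11 peaks of each lie beyond the axis, at genes whose other end is near.

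Of the noncoding-end peaks, 18 in control cells and 14 in knockdown cells lay 2 to 3 kb from the end. The farthest noncoding-end peak lay 2892 bp from its end in control cells (LINC01680, 3.35-fold) and 2934 bp in knockdown cells (LOC105375322, 3.52-fold, and LINC01340, at 4.72-fold the highest of that list), and the nearest peak left out 3048 bp (LOC105377503, 3.51-fold) and 3132 bp (LOC105375546, 2.93-fold). On the coding side the nearest one kept was that of LOC124901365, 3100 bp from USP45 in control cells and 3243 bp in knockdown cells. The nearest ones left out lay 2069 bp (3.55-fold) and 2600 bp (3.66-fold) from MON2. Most peaks near a noncoding end were left out for a coding gene: 361 of 446 in control cells and 422 of 507 in knockdown cells. Those kept were often remote, with a median of 85.8 kb to the nearest coding gene end in control cells and 55.4 kb in knockdown cells. More than 500 kb separated 10 control and 11 knockdown peaks from any coding gene end.

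Some noncoding-end peaks lay over a small RNA gene rather than only beside a long one: 5 of 85 in control cells (5.88%, interval 1.94 to 13.2%) and 4 of 85 in knockdown cells (4.71%, interval 1.30 to 11.6%), beside 1.89% and 1.96% of other peaks. Most of those other peaks lay at or in coding genes. Among distal peaks alone the share lay inside the interval in each library, so no excess over distal peaks is read. Transfer RNA, 7SL and vault RNA genes are transcribed by RNA polymerase III from short genes of their own. The LINC02453 peaks, 3.52-fold in control cells and 2.95-fold in knockdown cells, covered the aspartate tRNA gene TRD-GTC1-1. The LOC124903280 peaks, 3.72-fold and 3.63-fold, covered the threonine tRNA gene TRT-TGT3-1, and in control cells also the proline tRNA gene TRP-AGG2-6. The peak of LOC105378179 shared by both libraries, 3.64-fold and 3.94-fold, covered RN7SL2, the RNA of the signal recognition particle, 2556 bp from the lncRNA's end in control cells. Among control peaks without a partner, the LOC107985108 peak covered the asparagine tRNA gene TRN-GTT6-1, and the LOC105378198 peak covered the vault RNA gene VTRNA1-1 (3.21-fold). Which gene such a peak belongs to was not tested.

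Further peaks lay over pseudogenes, 6 of 85 (7.06%, interval 2.63 to 14.7%) in each library, beside 1.62% and 1.87% of other peaks. Among distal peaks alone the shares were 2.61% in control cells, just below that interval, and 3.64% in knockdown cells, inside it. The noncoding-end peaks over pseudogenes included those of LOC101929540 over SEPTIN7P9, of LINC00537 over DUX4L50 and of LOC107986997 over FRG1HP, each called in both libraries. The LOC101929540 peak was the widest of the control, 1394 bp. Reads from such copied sequence can be assigned to the wrong copy, so enrichment there is uncertain. LINC00537 and LOC107986997 are among the 10 strongest above, with a −log10 q over 5 in both libraries.

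Starts that a peak covered were rich in CpG. RefSeq start windows were at hand for 87 of the 144 genes, and a noncoding-end peak overlapped 36 of them: 9 in both libraries, 16 in control cells alone and 11 in knockdown cells alone. These 36 held a median of 20 CpG and 60.7% G + C, while the 51 windows not overlapped held 3 CpG and 45.3%. Over all 11383 noncoding windows of the table the medians were 5 CpG and 50%. At least 10 CpG were found in 26 of the 36 (72.2%), beside 32.6% of all noncoding windows. The exceptions with few CpG included MIR29B2CHG (3), LINC01213 (3) and LINC01985 (1).

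**Figure D4:**
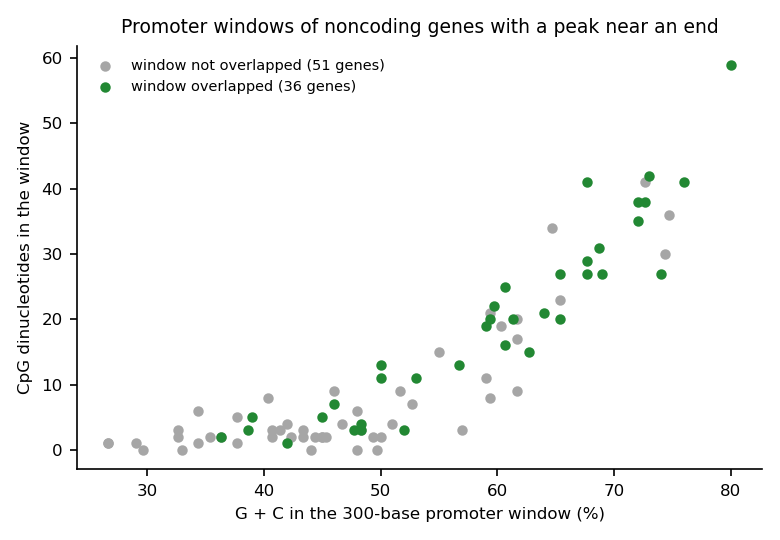
CpG dinucleotides (vertical) against G + C percent (horizontal) in the 300-base start window of the 87 genes with a window in the table; green points are the 36 windows overlapped by a noncoding-end peak in either library. Most green points lie at 10 CpG or more, and LOC101929540 stands at the top with 59.

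The motifs were searched on both strands of the same windows. GGGCGG was in 20 of the 36 overlapped windows (55.6%, interval 38.1 to 72.1%), beside 25.5% of all noncoding windows. CCAAT was in 19 (52.8%, interval 35.5 to 69.6%), beside 34.7%. CCGGAAGT was in 5 (13.9%, interval 4.67 to 29.5%), beside 2.01%: LINC00526, LINC00667, LINC01666, LOC100630923 and LOC101927209, of which the first 2 share much of their window. TATAAA was in 3 (8.33%), beside 15.2%. TGACGTCA was in 2 (LINC03011 and LNC-LBCS), TGAGTCA in 2, and TGTTTAC, the NRF1 motif and the ZNF143 motif in 1 each. CACGTG was in none of the 36, and in 5.46% of all. Some of the 36 windows overlap each other, such as those of LINC00472 and LINC01626 and those of LINC00526 and LINC00667. They are therefore not all independent, and the intervals can be too narrow. Windows were not matched for composition, and its part in these shares was not tested.

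By their names, 47 of the 144 genes were LINC genes, which are curated intergenic transcripts, and 77 were numbered LOC genes, mostly without further description. LINC genes made up 32.6% of the genes with a peak and 16.6% of all that could be reached, and LOC genes 53.5% and 67.9%. Of the 47 LINC genes 20 had a peak in both libraries, 18 in control cells alone and 9 in knockdown cells alone. Of the 77 LOC genes it was 21, 26 and 30. Of 899 antisense genes, named with -AS, that could be reached, 3 had a peak (0.334%), beside 1.07% of all noncoding genes. They were PDK4-AS1 in control cells, and GAS5-AS1 and TSHR-AS1 in knockdown cells. A gene could be reached if only part of the 3 kb around an end was far enough from coding genes. The size of that part was not compared between name classes, LINC genes included, so these shares are not read as differences. ELDR, a transcript downstream of EGFR, had a peak in knockdown cells alone (3.21-fold). PDK4-AS1, TSHR-AS1 and ELDR were likewise picked with their values known.

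Along the genome, noncoding-end peaks were most numerous on chromosomes 1 and 8 in control cells (11 each) and on chromosome 3 in knockdown cells (10). These chromosomes also held many peaks of every kind: noncoding-end peaks were 4.85%, 4.04% and 5.53% of the control peaks of chromosomes 1, 3 and 8, and 3.14%, 3.95% and 3.96% of their knockdown peaks, near the shares of the whole lists. As a share of the noncoding genes that could be reached, 2.43% of 659 on chromosome 7 had a peak in either library (interval 1.39 to 3.91%), 1.94% of 670 on chromosome 8, 1.83% of 766 on chromosome 3 and 1.78% of 1178 on chromosome 1, beside 1.07% over all chromosomes. On chromosome 2 it was 0.346% of 1155 (interval 0.0944 to 0.884%). Chromosome 22 had none of 251 (exact upper limit 1.46%) and X none of 296 (exact upper limit 1.24%). Both held few peaks of any kind: 3 and 15 in control cells, and 4 and 16 in knockdown cells. Chromosome 19 held 1 noncoding-end peak among 5 peaks of any kind in control cells and 3 among 13 in knockdown cells. These were the highest shares of any chromosome, on very few peaks. Chromosome 17 held 0 among 41 and 1 among 71. Of the genes that could be reached, 1.69% on chromosome 19 and 0.219% on chromosome 17 had a peak in either library. The exact intervals of both shares held 1.07%.

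**Figure D5:**
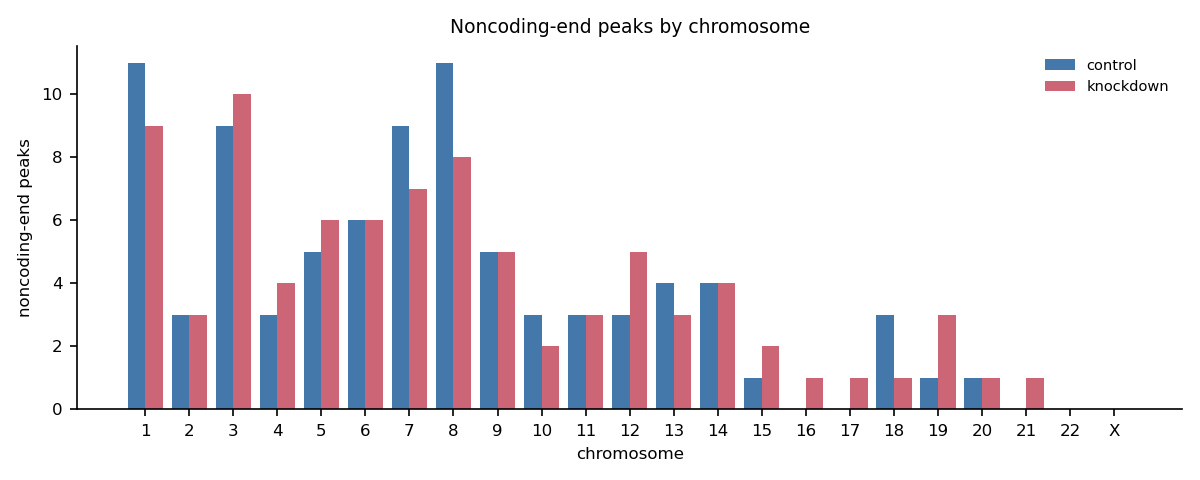
Number of noncoding-end peaks (vertical) on each chromosome (horizontal) in the control (blue) and the knockdown (red) list. Chromosomes 1, 3 and 8 are the tallest, with 11, 9 and 11 control peaks and 9, 10 and 8 knockdown peaks, and 22 and X hold none.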

How the data were processed

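Per the submitters' processing notes, which give no role or order, the authors used GRCh38 and, of tools, MACS2 (no version), Bowtie2 2.2.9, CASAVA 1.8.2, ChIPseeker 1.22.1, Picard 1.101 and SAMtools 1.9. Peak calling options were not given in the sources used here. The authors deposited 1 broad peak list per library. Each deposited peak has a fold ratio over local background, a −log10 p, a −log10 q and a score that is 10 times the −log10 q without its decimals. No reads or coverage were used, so depth is unknown.

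Peaks were placed against the RefSeq gene table of GRCh38.p14 with 1-based coordinates, using pandas 2.3.3 and numpy 2.4.6 under Python 3.11.15; intervals came from scipy 1.17.1 and figures from matplotlib 3.10.9. A peak was shared if at least 1 bp overlapped a peak of the other list. A gene could be reached if part of the 3 kb around an end lay over 3 kb from coding genes, which held for 13430 of 18229. With 1 library per group no test was made. The placement and overlap steps were checked on simulated peaks.

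Named genes were the 10 with the highest control fold in both lists, the 8 highest in each list alone, those of 4 lists (prostate cancer lncRNAs, widely expressed lncRNAs, SNHG genes, MIR host genes), those with several peaks, and the extremes of fold and width. Older symbols were matched through the table's synonyms (LINC01578 is CHASERR); TUG1 is typed protein-coding there and was not counted. Members and lists were chosen with earlier results of these data known. Strand and start windows were at hand for 87 of 144 genes. Thresholds, distances, RNA types, peak merging and list length were varied. Some results of the cell line check and the motif search are not reported here.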

Additional observations from a re-analysis of the deposited data

How the results depend on the processing

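With 1 library per group, an effect of the knockdown and any other difference between the libraries cannot be told apart, and no library can be left out. No paired analysis was possible because each group has 1 sample and no test was made. Of 100 values recomputed under 10 alternatives, 79 kept within their error or within 1.5 times and 21 moved. The ratio of knockdown to control peaks, 1.00 as reported and so without a direction, ran from 0.788 at equal list lengths to 5 against 4 peaks at a −log10 q of at least 5.

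Keeping peaks with a −log10 q of at least 5 left 4 control and 5 knockdown peaks, with median fold 4.42 and 4.30 and median width 416 and 689 bp. It left 3 genes in both, 1 in control cells alone and 2 in knockdown cells alone, and 75% of the control peaks were shared. At a −log10 q of at least 2, 43 control and 45 knockdown peaks remained, with median fold 3.87 and 3.76, and 21 genes in both, 28 in control cells alone and 31 in knockdown cells alone. Ends within 1 kb gave 53 control and 62 knockdown peaks, a ratio of 1.17, with 28 genes in control cells alone and 37 in knockdown cells alone. Counting all RNA types gave 77 genes in both. With the knockdown list cut to as many peaks as the control list by −log10 q, 32 genes were in knockdown cells alone and 51 in control cells alone, which turns the reported order, and the ratio of peaks was 0.788. Coding ends more than 10 kb away gave 42 and 44, which also turns it.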

Other observations

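Peaks far from coding genes and from lncRNA ends, but within 3 kb of another type of RNA gene, numbered 18 in control cells and 20 in knockdown cells, and 10 of each were shared. Transfer RNA genes accounted for 11 and 12 of them, and 9 and 10 of these peaks lay over the end of a transfer RNA gene. The strongest near transfer RNA genes were by TRL-CAA6-1, a leucine transfer RNA gene of chromosome 1, with 4.85-fold enrichment in control cells and 4.76-fold in knockdown cells. They lay 539 bp from its end in control cells and 423 bp in knockdown cells, not over it. A cluster of 4 transfer RNA genes at chr11:59550323-59551050 had 4.77-fold enrichment in control cells and 4.06-fold in knockdown cells. The vault RNA gene VTRNA1-2 had 4.52-fold enrichment in control cells and 3.62-fold in knockdown cells, and VTRNA1-3 had 4.64-fold and 4.42-fold. Beside them, VTRNA1-1 was covered only by the control peak of LOC105378198.

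Variant U1 small nuclear RNA genes had a peak in the knockdown list only, with 4.17-fold enrichment at RNVU1-15, 3.85-fold at RNVU1-14 and 3.54-fold at RNVU1-8. These genes are near-identical copies on chromosome 1, and how their reads were assigned is uncertain. SNAR-A4 had 3.51-fold enrichment in control cells and 4.31-fold in knockdown cells. RNY5, a Y RNA gene, had 3.53-fold enrichment in control cells alone. No test was made on any of these values.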
